A study of Homo sapiens with 14 samples.

Results

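A transversion exchanges a purine for a pyrimidine or the reverse, and the sites described here are all sites at which such a change was called in the RNA of 293FT cells. They were chosen by the change alone: the base of the reference was A or G and the called base C or T, or the other way round, in any of 14 lists of called sites. Sites were counted as distinct by position, strand and change. The rule found 666 transversion sites among 22358 sites of any change (2.98%), with 1090 transversion calls among 46372 calls. Every library came from 293FT cells, an established human line derived from embryonic kidney that expresses the SV40 large T antigen. The 5 groups were non-transfected cells, cells given EGFP, cells given Cas9 (3 libraries each, together the 9 control libraries), cells given the prime editor PE3 (2 libraries) and cells given the base editor hA3A-BE3 (3 libraries). PE3 replicate 1 was not analysed here. All titles carry the name hRNF2, and one protocol is given for all samples, in which the brightest 15% of cells were sorted 40 h after transfection, total RNA was cleared of ribosomal and globin transcripts, and fragments were read from both ends for 150 bases. Nothing in the labels ties replicates to separate cultures, so a p-value covers only the spread between libraries, and that spread may be technical. The lists hold called sites and no expression values, so the identity of the cells was not checked against markers.

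As background, the enzymes best known for changing bases in RNA produce transitions, not transversions. ADAR enzymes deaminate adenosine to inosine, which is read as G, and APOBEC enzymes deaminate cytidine to uridine. hA3A-BE3 joins human APOBEC3A to a Cas9 nickase. PE3 is a prime editor: its Cas9 nickase is fused to a reverse transcriptase that copies an edit from the extended guide RNA, and an additional guide directs a nick to the opposite strand. In DNA, uracil left by a deaminase can be excised by uracil glycosylase, and repair of that gap is a known route from C to G or A. Lists of differences between RNA reads and a genome also hold inherited variants of a cell line and reads placed at a near-identical copy of a gene.

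The sequences around the sites on which the results turn are printed here, from GENCODE release 29 transcripts (GRCh38), 5′ to 3′ on the strand of the RNA, with T for U. The capital letter is the reference base that was changed. The first 5 sites were called in all 14 libraries, and NPM1P27 was called in 13 at nearly all reads.
NANS G-to-C: aagccttggaGaggccataca
C5orf22 A-to-C: tgctgccagcActggggaaat
CLIP1 C-to-G: agcaagccgaCaaagccaaag
SLC35B2 C-to-A: tgacagccacCctcatctcca
CEP350 G-to-C: tcccaaaccaGaagggctact
NPM1P27 G-to-T: gtgaaactctGaagtatatct
Shown next are 2 sites beside runs of the base that was called in place of the reference base.
CBX6 T-to-G: tatgggggggTggcgggggag
CDK12 A-to-C: cttctcccccAccccctctac
The last pair are a mitochondrial site listed for hA3A-BE3 only and the site of ZNF107 that was called in the most libraries.
MT-RNR2 A-to-T: tgttccttaaAtagggacctg
ZNF107 A-to-C: caatcctcaaAccttactaca

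Most transversion sites were seen in a single library. Of the 666 sites, 550 (82.6%) were called in 1 library, 100 in 2 to 9, and 16 (2.40%) in 10 or more, 5 of these in all 14. A-to-I sites were called in 1 library in 52.9% of 9770 cases, and G-to-A sites in 79.6% of 587. The level of a site, meaning the percent of covering reads with the changed base averaged over the libraries that called it, had a median of 9.09% at sites of 1 library, 12.8% at sites of 2 to 9 and 35.1% at sites of 10 or more. Levels from 20 to 40% were found at 10 of the 16 most recurrent sites (62.5%), but at 69 of all 666 sites (10.4%). Sites at 90% or more numbered 16 (2.40%), against 22 of 9770 A-to-I sites (0.225%). A site missing from a list may be unchanged, uncovered or below the limits of the caller, so a missing site was not taken as a level of 0. The lowest values in the lists were 2 changed reads and, for transversions, a level of 5.06%.

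The 5 transversion sites called in every library all lay in coding exons, 4 of them with an amino acid change. In NANS, which encodes the synthase of sialic acid, the G-to-C change E68D (chr9:98060853) had levels of 22.9%, 37.2% and 29.3% in hA3A-BE3 replicates 1 to 3 and 40.7% and 36.6% in PE3 replicates 2 and 3. Its 9 control libraries ran from 26% over a median of 33.3% to 41.6%, on 27 to 228 covering reads over all libraries. Both PE3 libraries lay inside the control range, and of the hA3A-BE3 libraries replicate 1 lay below it. In CLIP1, a protein of growing microtubule ends, the C-to-G change D1080E (chr12:122327956) stood at 34.8%, 23.8% and 35.4% with hA3A-BE3, 41.7% and 30.1% with PE3, and 19.6% to 48.0% in controls (median 34.3%). In CEP350, a centrosomal protein, the G-to-C change E945Q (chr1:180020607) stood at 33.3%, 25.9% and 37.7% with hA3A-BE3 and from 21.6% to 46.3% in controls (median 39.1%). The PE3 values of CEP350, 63.6% in replicate 2 and 21.4% in replicate 3, were the highest and the lowest of all 14 libraries, and the covering reads at this site ranged from 11 to 69.

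SLC35B2 carries the sulfate donor PAPS into the Golgi, and its C-to-A change was synonymous (T195T, chr6:44255273). Its levels were 22.2%, 34.3% and 25.9% with hA3A-BE3, 27.3% and 40.3% with PE3, and 21.2% to 34.6% in controls (median 27.1%). PE3 replicate 3 lay above the control range, and the other 4 libraries with an editor lay inside it. C5orf22 had the lowest mean of the 5, 17.1% ± 5.63 (SD, n = 14), for the A-to-C change T235P (chr5:31538585). There hA3A-BE3 libraries gave 12.9%, 14.1% and 16%, PE3 libraries 14.8% and 17.8%, and controls 8.51% to 30.9% (median 18.8%). The 3 Cas9 libraries, at 20.6%, 30.9% and 23.0%, lay above the 11 others at this site, of which the highest was EGFP replicate 3 at 20%. At all 5 sites the hA3A-BE3 and PE3 libraries overlapped the range of the 9 controls.

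These levels were compared with limma on log2 odds, fitted over the 152 sites of any change called in all 14 libraries. Of the 5 transversion sites, 0 passed an adjusted p of 0.05 in either comparison, and 0 had an unadjusted p under 0.05. Over all 152 sites, 0 (0%) passed for hA3A-BE3 against the 9 controls and 2 (1.32%) for PE3, with 7 and 20 sites at an unadjusted p under 0.05. The largest difference among the 5 was that of SLC35B2 with PE3, 0.53 on the log2 odds scale (95% interval −0.22 to 1.27, limma adjusted p = 0.487). For hA3A-BE3 the largest was that of C5orf22, −0.33 (95% interval −0.95 to 0.29, limma adjusted p = 0.968). The intervals leave room for shifts of more than 1 log2 unit of odds at CLIP1, CEP350, SLC35B2 and NANS in at least 1 of the comparisons. Averaged over the 5 sites, the level was 27.1% with hA3A-BE3, 33.4% with PE3 and 29.7% in controls, and neither difference passed (two-sided exact permutation p = 0.355 and 0.4). Leaving out 1 library at a time, an alternative for these same 5 sites that was added after seeing the data, the hA3A-BE3 difference ran from −3.6 to −1.76 percentage points and that of PE3 from −0.47 to 7.91, below 0 only without PE3 replicate 2.

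**Figure D1:**
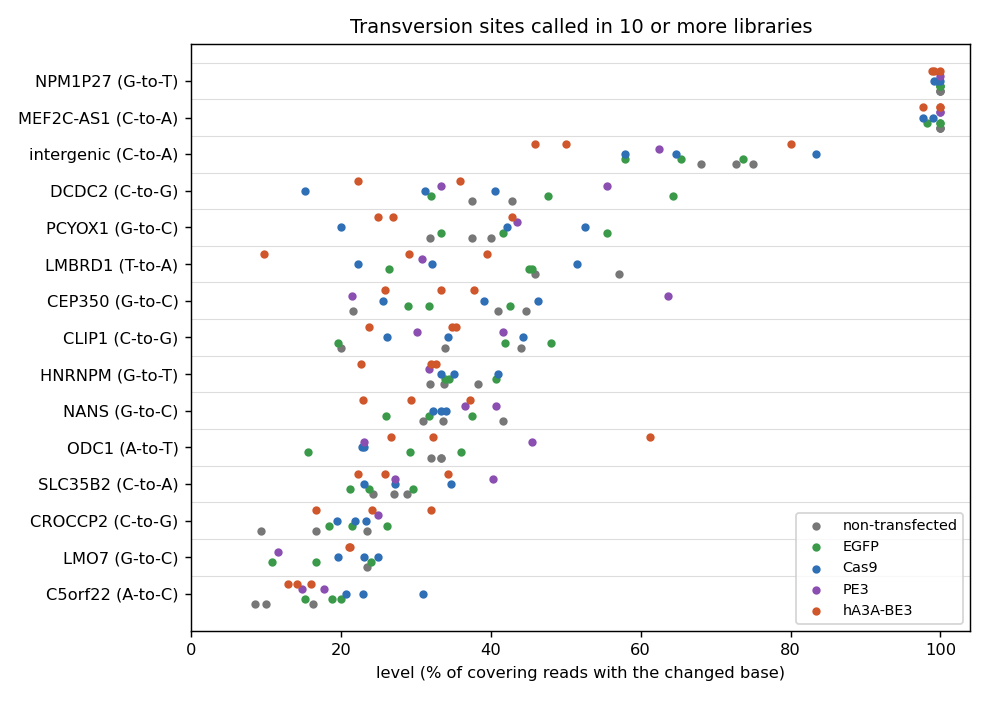
Each row is 1 of 15 transversion sites called in 10 or more libraries and each point the level in 1 library, in percent of covering reads, coloured by group. At CEP350 the 2 PE3 points are the highest and the lowest of the row, and NPM1P27 and MEF2C-AS1 lie at 97.7% or more in every library that called them.

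Of the other 11 recurrent sites 10 are described here, with most near 20 to 40% and a few higher. NPM1P27, a processed pseudogene of nucleophosmin, carried G-to-T at 99.7% ± 0.426 (SD, n = 13) on 73 to 241 reads, in every library but PE3 replicate 3. An intron of MEF2C-AS1, an antisense transcript, carried C-to-A at 99.4% ± 0.933 (SD, n = 13), in every library but Cas9 replicate 2. An intergenic C-to-A site (chr19:5206263) stood at 65.9% ± 11.2 (SD, n = 13), with hA3A-BE3 libraries at 80.0%, 50% and 45.8% and controls from 57.9% to 83.3%. Reads of a pseudogene and of its parent gene can be exchanged by an aligner, so the level in NPM1P27 and in CROCCP2 below is uncertain.

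HNRNPM, a regulator of splicing, carried the synonymous G-to-T change L561L at 34% ± 4.61 (SD, n = 13). Levels at this site were 32.7%, 32% and 22.7% with hA3A-BE3, 31.7% in PE3 replicate 3 and 31.9% to 40.9% in controls, and PE3 replicate 2 did not list it. hA3A-BE3 replicate 3 and, by a small margin, PE3 replicate 3 lay below the control range. ODC1, the rate-limiting enzyme of polyamine synthesis, carried A-to-T in its 5' UTR at 31.9% ± 11.6 (SD, n = 13). Its highest value, 61.3% in hA3A-BE3 replicate 1, lay above all 8 listed controls (15.6% to 36.0%), while the other hA3A-BE3 libraries, at 26.7% and 32.4%, lay among them. PE3 replicate 2, at 45.5%, also lay above them, and PE3 replicate 3, at 23.1%, among them. LMBRD1, needed to export cobalamin from lysosomes, carried the T-to-A change D469E at 36.3% ± 13.6 (SD, n = 12). It stood at 39.5%, 29% and 9.76% with hA3A-BE3, at 30.8% in PE3 replicate 2 and from 22.2% to 57.1% in controls. The lowest of these, hA3A-BE3 replicate 3, was the only library below the control range. The remaining sites were in CROCCP2, a pseudogene of the rootletin gene (C-to-G, 21.4% ± 5.54, SD, n = 13), and LMO7 (synonymous S240S, G-to-C, 19.7% ± 5.07, SD, n = 10), and in the 3' UTRs of PCYOX1 (G-to-C, 37.9% ± 10.4, SD, n = 13) and DCDC2 (C-to-G, 38.2% ± 13.5, SD, n = 12). MEF2C-AS1, PCYOX1, DCDC2, LMO7 and the intergenic site fall outside the rule for named sites and were named after their values were seen. PE3 libraries listed 12 of the 16 sites each, control libraries 13 to 16 and hA3A-BE3 libraries 15 or 16.

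Stretches of a single base near the sites were counted for each class of recurrence, as a description with no test. Of 14 exonic sites called in 10 or more libraries, 1 (7.14%) had a stretch of at least 6 equal bases within 15 bases. Such a stretch was near 26.9% of 67 exonic sites of 2 to 9 libraries and 10.6% of 444 exonic sites of 1 library.

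Among sites of 2 to 9 libraries several stood at or near 100% wherever they were listed. H1F0, which encodes a linker histone, had C-to-A (chr22:37805294) in 8 libraries and C-to-G (chr22:37805292) in 7, every call at 100%, on 22 to 65 and 20 to 59 reads. The first was listed for hA3A-BE3 replicates 1 and 3, PE3 replicate 3 and 5 of the 9 controls. Why such sites are missing from other lists was not tested. An intron of the chaperonin subunit CCT2 held T-to-A at 93.1% ± 4.06 (SD, n = 7), listed in all 3 hA3A-BE3 libraries (94.7%, 93.3% and 96.4%), PE3 replicate 2 (95.8%) and 3 controls (84.6% to 95%). The pseudogene YBX3P1 held T-to-G at 100% in 6 libraries, and ANKRD36, of a family with near-identical copies, C1159S at 100% in 3. Reads of such copies cannot be told apart with certainty.

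Other sites of 2 to 9 libraries spanned a wide range of levels. GSPT1, the release factor eRF3a, carried the G-to-T change G92C at 54.9% ± 6.81 (SD, n = 7), in PE3 replicate 3 (60.6%) and 6 controls (44.0% to 63.3%), and in 0 of the 3 hA3A-BE3 lists. UBXN11 carried the G-to-T change G384C at 92.6% ± 12.2 (SD, n = 8) on 3 to 11 reads, in 7 controls, PE3 replicate 3 and again 0 hA3A-BE3 lists. These absences were seen after the fact and carry no test. MAGOH, a core protein of the exon junction complex, had 3 T-to-G sites within 12 bases of its 3' UTR. The most recurrent was listed in 9 libraries at 16% ± 5.18 (SD, n = 9), with 9.09%, 16.7% and 11.9% in the hA3A-BE3 libraries, 17.4% in PE3 replicate 3 and 12.2% to 26.3% in 5 controls. LNPK, a protein of endoplasmic reticulum junctions, carried T-to-G at 64.4% ± 13.1 (SD, n = 7), in all 3 hA3A-BE3 libraries and 4 controls. EEF2, the elongation factor that moves the ribosome along the mRNA, had G-to-T in its 5' UTR at 6.58% in 4 libraries, and the ubiquitin ligase gene RFWD3 T-to-A at 12.3% in 5.

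Sites of a single library rested on few reads. Of these 550 calls, 389 (70.7%) had 2 or 3 reads with the changed base and 125 (22.7%) had 2, on a median of 32 covering reads. Levels of 5 to 10% made up 316 of the 550 (57.5%) and levels of 10 to 20% a further 171 (31.1%). The share with 2 or 3 changed reads ran from 54.3% in PE3 replicate 2 to 83.3% in hA3A-BE3 replicate 2. At this depth a call in 1 library and its absence from another are not a measured difference between them.

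No difference in the number of transversion sites between groups passed the test. hA3A-BE3 libraries held 103, 74 and 103 sites, PE3 libraries 68 and 70, Cas9 libraries 77, 79 and 90, EGFP libraries 77, 66 and 65, and non-transfected libraries 72, 75 and 71. Replicates 1 and 3 of hA3A-BE3 exceeded every control, and replicate 2 did not. The mean was 93.3 ± 16.7 (SD, n = 3) with hA3A-BE3 and 74.7 ± 7.53 (SD, n = 9) in controls, a 1.24-fold difference on the scale of log2(sites + 1) with a 95% interval of 0.987 to 1.55 (two-sided exact permutation p = 0.0545, Benjamini-Hochberg adjusted p = 0.364 over 16 comparisons). For PE3 the mean was 69.0 ± 1.41 (SD, n = 2) and the fold 0.929 (95% interval 0.759 to 1.08, exact permutation p = 0.364, adjusted p = 0.4). The smallest exact permutation p that 3 against 9 libraries can give is 0.00909, and 2 against 9 can give 0.0364. After adjustment over 16 comparisons a lone result at either value cannot pass: at 0.00909 the adjusted p is 0.145. Smaller comparisons, PE3 with Cas9 (0.845-fold), hA3A-BE3 with PE3 (1.33-fold), EGFP with non-transfected (0.952-fold) and Cas9 with EGFP (1.18-fold), gave exact permutation p-values of 0.2, 0.2, 0.4 and 0.2, and those designs cannot go below 0.2, 0.2, 0.1 and 0.1.

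The difference between hA3A-BE3 and controls depended on which sites entered. From 0.31 on the log2 scale it moved to 0.41 (exact permutation p = 0.1) with at least 20 covering reads per site and to 0.64 (exact permutation p = 0.118) with at least 50. Among sites called in at least 2 libraries, an alternative chosen after seeing the data, the log2 difference from controls was −0.06 (exact permutation p = 0.609), and among calls at a level of 10% or more it was −0.05 (exact permutation p = 0.645). Without hA3A-BE3 replicate 2 it was 0.47. Per gigabase (Gb) of mapped bases, of which a list had 3.26 (PE3 replicate 2) to 10.6 (Cas9 replicate 3), hA3A-BE3 libraries held 14.2, 12.6 and 11.6 sites, PE3 libraries 20.9 and 9.21, and controls 8.46 to 14.5. The sign of the PE3 difference turned on this scale, to a log2 difference of 0.39 (exact permutation p = 0.291).

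As a share of the whole list, transversions stood lowest in hA3A-BE3 cells, a difference that did not pass after adjustment. They made up 2.20%, 1.00% and 1.11% of the called sites of the 3 hA3A-BE3 libraries, against 2.25% to 5.11% in controls (median 3.03%), so the groups did not overlap (two-sided exact permutation p = 0.00909, the smallest possible, adjusted p = 0.145). The hA3A-BE3 lists were also longer, with 4689 to 9278 sites against 1547 to 3300 in controls, and the share divides by that length. PE3 libraries gave 6.17% and 2.94% (exact permutation p = 0.255, adjusted p = 0.4), and without PE3 replicate 2 the difference turned from 1.26 to −0.356 percentage points. Sites called in no other library made up 57.0% ± 9.92 (SD, n = 3) of the transversions of an hA3A-BE3 library, 61.7% ± 8.44 (SD, n = 2) of a PE3 library and 44.5% of a control library on average. Neither difference passed (exact permutation p = 0.0909 and 0.0727, both adjusted p = 0.364).

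No difference in level or coverage between groups passed the test. The median level of a library's transversion sites was 10.3%, 13.7% and 9.43% with hA3A-BE3, 25.2% and 10.3% with PE3, and 8.76% to 18.8% in controls (median 14.3%). The difference was −2.73 percentage points for hA3A-BE3 (95% interval −6.67 to 1.5, exact permutation p = 0.173) and 3.88 for PE3 (95% interval −8.43 to 16.4, exact permutation p = 0.327). The 2 PE3 libraries lay on opposite sides of the control mean, and PE3 replicate 2, the highest of all 14, was also the shallowest. Without it the PE3 difference was −3.56. Median covering reads were 36.0, 27.0 and 35.0 with hA3A-BE3, 18.5 and 32 with PE3, and 25 to 38.5 in controls, with exact permutation p-values of 0.309 and 0.291. Without PE3 replicate 2 the log2 difference for PE3 turned from −0.25 to 0.14. Across the 14 libraries the number of transversion sites and the mapped bases had a Pearson r of 0.477 (permutation p = 0.0959) and a Spearman rho of 0.249 (permutation p = 0.393), or adjusted p = 0.192 and 0.393 over both. Without Cas9 replicate 3 and PE3 replicate 2, the libraries farthest from the median depth, r was 0.379. Within the 9 controls r was 0.527 (permutation p = 0.151) and rho −0.0251, and without Cas9 replicates 2 and 3 r there was −0.325, so that the relation within controls rests on those libraries.

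All 8 transversions were present, from 48 sites of C-to-G and 66 of T-to-G to 105 of C-to-A and 110 of G-to-T. A-to-C had 82 sites, A-to-T 89, G-to-C 85 and T-to-A 81. C-to-G, a change that repair of deaminated DNA can yield, was called at 14, 8 and 9 sites in the hA3A-BE3 libraries, 6 and 5 in the PE3 libraries and 4 to 9 in the controls. The mean of 10.3 ± 3.21 (SD, n = 3) against 6.56 ± 1.67 (SD, n = 9) was a 1.5-fold difference (two-sided exact permutation p = 0.0455, adjusted p = 0.364 over 16 tests). C-to-A, the other such change, was called at 14.7 ± 7.37 (SD, n = 3) against 13.4 ± 3.00 (SD, n = 9) sites (exact permutation p = 0.827). G-to-C, which is C-to-G on the opposite DNA strand, was called at 14, 8 and 10 sites in the hA3A-BE3 libraries. The controls had 7 to 15 G-to-C sites, a 0.972-fold difference (exact permutation p = 0.873). Whether DNA repair gave any of these changes was not tested. G-to-T stood at 16 ± 4.58 (SD, n = 3) against 10.7 ± 3.43 (SD, n = 9) (exact permutation p = 0.0818, adjusted p = 0.436). With PE3, A-to-T was called at 10 and 9 sites against 5 to 8 in the controls, a 1.31-fold difference (exact permutation p = 0.0364, the smallest possible, adjusted p = 0.364). Of the 16 tests 0 passed after adjustment, and 2 had an unadjusted p under 0.05.

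The new base stood beside the site in about as large a share of transversions as of A-to-I sites, and the share varied among the 8 changes. Of 525 exonic sites, 261 (49.7%) had the new base on at least 1 side, against 47.2% of A-to-I, 57.1% of T-to-C, 69.6% of G-to-A and 94.9% of C-to-U sites. Among the transversions these were 43 of 59 A-to-C sites (72.9%), 34 of 56 T-to-G sites (60.7%) and 40 of 67 C-to-A sites (59.7%), but 19 of 74 A-to-T sites (25.7%). The CBX6 and CDK12 windows printed above show this form, a T within a run of G and an A within a run of C. A run of at least 4 of the new base touched 66 exonic sites (12.6%), against 0.226% of 5764 A-to-I sites and 34.7% of 490 G-to-A sites. Within 5 bases of an exon junction lay 8 sites (1.52%). APOBEC3A prefers C after U. Among exonic transversions of C in the hA3A-BE3 libraries, C followed U at 3 of 19, 4 of 14 and 3 of 20 sites (15.8%, 28.6% and 15.0%), and in controls at 6.25% to 27.3%. C-to-U sites had U before them in 93.9% of 10389 exonic cases. These shares are descriptions and were not tested.

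By region, the 666 sites comprised 339 in coding sequence (50.9%), 153 in 3' UTRs (23.0%), 121 in introns (18.2%), 20 between genes, 16 in 5' UTRs, 16 in non-coding exons and 1 in the mitochondrial genome. Coding sequence held 48.4% of G-to-A sites, 48.8% of C-to-U sites called outside hA3A-BE3, 69.5% of all C-to-U sites, 25.6% of T-to-C sites and 2.02% of A-to-I sites. The coding share per library was 64.1% at most among hA3A-BE3 libraries, with a mean of 48.0% ± 13.9 (SD, n = 3), and 52.2% ± 5.17 (SD, n = 2) with PE3 and 41.6% ± 7.08 (SD, n = 9) in controls (exact permutation p = 0.318 and 0.145). Introns held 13.9% ± 5.38 (SD, n = 3), 19.7% ± 11.7 (SD, n = 2) and 20% ± 6.07 (SD, n = 9). Of 14 tests of regions 0 passed after adjustment, and 1, that of mitochondrial sites with hA3A-BE3, had an unadjusted p under 0.05 (two-sided exact permutation p = 0.00909, adjusted p = 0.127).

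That mitochondrial site was the only transversion listed in every library of 1 group and in no other library. It lies at position 2617 of the mitochondrial genome in MT-RNR2, the large ribosomal RNA of the mitochondrion, at an adenosine known as background to carry an N1-methyl group, a modification that reverse transcriptases misread. In hA3A-BE3 replicates 1, 2 and 3 T was read at 45.0% (95% Wilson interval 42.1 to 47.8), 43.2% (40.6 to 45.8) and 44.6% (42.3 to 46.9) of 1174, 1431 and 1837 reads, intervals that cover counting error only. G was read at 2.30%, 1.96% and 1.80%, and the rest was almost all A. The other 11 libraries did not list the position, although all of them listed a G-to-A site in the same RNA at position 3010, on 369 to 3604 reads and at 22.9% to 35.5%. hA3A-BE3 libraries had that site at 31.5%, 34.4% and 28.3%. The methyl group's part in the listing was not tested, and the lists do not give the level at 2617 in the other groups.

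Other sites listed in 1 group only were seldom shared by its libraries. Of 226 transversion sites listed with hA3A-BE3, 165 were listed in no other group, 3 of them in 2 or more of its libraries. Of 129 with PE3, 85 were listed in no other group, with 0 in both libraries. For non-transfected, EGFP and Cas9 cells these were 102 of 169, 77 of 152 and 132 of 201. Of these, 3, 3 and 2 were in at least 2 libraries and 0 in all. PE3 had 2 libraries and the other groups 3, and depth differed, so the counts are not a measured difference between groups. The same share over sites of any change was not computed. RNF2, the gene named in the titles, had 0 transversion sites in any list and 1 site of another change.

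Zinc finger genes, a family of related genes, held more transversion sites by count than any other gene list. Of the 666 sites, 646 lay in 519 genes and 20 between genes. Genes named ZNF, which encode transcription factors with repeated finger domains, held 100 of the 666 (15.0%). They held 12.3% of G-to-A, 11.8% of T-to-C, 6.77% of A-to-I and 3.06% of C-to-U sites. Of 207 ZNF genes with any called site 53 (25.6%) had a transversion, against 519 of all 5608 genes with any site (9.25%). The 100 ZNF sites, with 118 calls, had a median level of 8.45%, against 9.52% over the sites of all genes. Per library, 4 to 15 sites were in ZNF genes, 15, 4 and 13 with hA3A-BE3, 4 and 8 with PE3 and 4 to 11 in controls. Chromosome 19, where many ZNF genes lie, held 83 transversion sites (12.5%), 53 of them in ZNF genes, and 8.33% of called sites of any change. Fingers repeat within and between these genes, so reads can be placed at the wrong copy and levels there are uncertain. Misplacement of reads was not tested. ZNF107 had 9 sites over 1474 bases at 6.38% to 8.33%, ZNF91 and ZNF431 6 each and ZNF562 5. The A-to-C site of ZNF107 printed above (N706T) was listed in hA3A-BE3 replicates 1 and 2 and Cas9 replicate 1, at 7.14%, 6.35% and 5.63%.

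Outside this family, LINGO1, a membrane protein of neurons, had the most sites of any gene, 10 within 61 bases of an intron (chr15:77618611-77618671), at mean levels of 5.41% to 10.8%. They came from 6 libraries of 3 groups: hA3A-BE3 replicates 1 and 2, PE3 replicate 2 and the 3 Cas9 libraries. In hA3A-BE3 replicate 2, 5 of these sites lay within 17 bases, each with 2 changed reads of 21 or 22. Within the same stretch, C-to-U (chr15:77618629) was called in hA3A-BE3 replicate 3, Cas9 replicate 3 and EGFP replicate 2. FAM69B had 5 intronic sites, with C-to-A (chr9:136720710) at 39.9% ± 8.64 (SD, n = 6) in PE3 replicate 3 and 5 controls. Calls of 1 library that lay within 50 bases of each other with the same number of changed reads, as reads that carry several changes would give, made up 91 of the 1090 calls (8.35%). They formed 41 clusters, 16 of them in ZNF genes, and their share of a library ran from 0% in Cas9 replicate 1 to 14.1% in non-transfected replicate 3. With hA3A-BE3 it was 9.71%, 12.2% and 11.7%, and with PE3 2.94% and 5.71%. Without these calls, an alternative chosen after seeing the data, the log2 difference in numbers was 0.26 for hA3A-BE3 (exact permutation p = 0.0727) and −0.05 for PE3 (exact permutation p = 0.727).

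The other gene lists gave counts read against the 9.25% of all genes. Pseudogenes had a transversion in 12 of 41 genes (29.3%), splicing factors in 8 of 45 (17.8%), translation factors in 7 of 38 (18.4%), cytosolic ribosomal proteins in 6 of 39 (15.4%), chaperones in 5 of 39 (12.8%), DNA repair genes in 7 of 61 (11.5%), tumour suppressors in 5 of 25 (20%), the cytoskeleton in 3 of 35 (8.57%), histones in 2 of 7 (28.6%) and families of segmental duplications in 1 of 5. Glycolysis had 1 of 12 genes (8.33%), PGAM5, a mitochondrial protein phosphatase with no step in glycolysis. HLA genes and mucins had no called site of any change, and protocadherins (0 of 3) and small structured RNAs (0 of 3) had no transversion. Among the nuclear RNAs NEAT1 had 1 site, at 12% in 1 library. The sites of ribosomal protein genes were of low recurrence, such as intronic sites of RPL24 (10.5%) and RPL4 (22.2%) and a 3' UTR site of RPL37 (7.41%), each in 1 library. In DNA repair and tumour suppressor genes, the kinase ATM had I77L at 21.1%, the chromatin remodeller ARID1B M1055I at 20% and the histone methyltransferase KMT2C Q1591H at 10.0%, each in 1 library on 3 or 4 changed reads.

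Most coding transversions would change the protein. Of 338 coding sites with a readable codon, 54 (16%) were synonymous, 264 (78.1%) gave another amino acid and 20 (5.92%) a stop codon. No share expected for transversions at any coding base was computed, and 303 of the 338 sites were called in 1 library. Among the 8 coding sites in 10 or more libraries, 5 gave another amino acid and 0 a stop. Of the 20 stops, 18 were called in 1 library. The others, named after their values were seen, were K715X in the zinc finger gene RLF, at 15.3% in 3 libraries, and E159X in the formin FMNL2, at 10.0% in 2. At 3 positions more than 1 change was called. In EXOC7, a subunit of the exocyst, C-to-A (Q466K, 11.1%) was called in hA3A-BE3 replicate 1 and C-to-G (Q466E, 21.2%) in replicate 3. In the 3' UTR of NOL9 an A-to-I site of 5 libraries (19.9%) was called as A-to-T in Cas9 replicate 2 (20%, 2 of 10 reads), and in LINGO1 a C-to-U site of 3 libraries was called as C-to-G in hA3A-BE3 replicate 2.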

How the data were processed

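Each library has a headerless table of called sites that the authors deposited. Its integers were taken as deposited counts of reads, its decimals up to 1 as the deposited fraction of reads with each base, and a deposited signal column as depth per gigabase of mapped bases, an inference from the values. The submitters' processing notes name BWA 0.7.17, GRCh38 and hg38. Neither the caller nor its filters nor its use of strand is given in the sources used here. The strand followed from the changed fraction, and the reference base was that of GENCODE release 29 at 17541 of 17541 exonic sites. Regions were taken on that strand, where 20 transversion sites had no gene, and 6 overlapped genes on both strands.

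Values per library were compared by two-sided exact permutation tests, numbers as log2(sites + 1), with Benjamini-Hochberg adjustment over 16 comparisons, 16 changes or 14 regions. Intervals (95%) hold the shifts not rejected. Sites called in all 14 libraries were tested with limma 3.58.1 (R 4.3.3) on log2 odds with 0.5 reads added, a fit checked on simulated data. Named sites were those in all libraries, those private to a group, up to 6 genes by number of sites, up to 6 recurrent recoding sites, up to 3 genes per list, 1 site per change, RNF2 and positions of more than 1 change. Some sites are not reported here. Members, lists and rules were chosen with earlier results of these data known. Alternatives tried were minimum reads and levels, other scales and pseudocounts, blocking by replicate and omitting single libraries.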

Additional observations from a re-analysis of the deposited data

How the results depend on the processing

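Differences in numbers of sites are log2, those in levels and shares percentage points and those in covering reads log2. Of 462 recomputed values, 436 kept direction and side of the threshold, 25 changed sign and 1 newly passed. The 436 include the counts of passing changes, regions and single sites, which were 0 throughout and have no direction to keep. No changed sign came with an adjusted p under 0.05, and the numbers of passing changes, regions and single sites stayed at 0 in every alternative run. For changes and regions these counts say little about stability, because a lone result at the smallest possible p could not pass. With hA3A-BE3 the mitochondrial region, at an exact permutation p of 0.00909, had adjusted p = 0.127. The median level of PE3 against controls became −1.31 with at least 20 covering reads, −3.67 with 50 and −0.768 with at least 5 changed reads, and its covering reads 0.0213 with at least 5 changed reads. Numbers of EGFP against non-transfected became 0.125 with 20 covering reads, 0.318 with 50, 0.151 with 5 changed reads and 0.175 for sites in at least 2 libraries. Numbers of Cas9 against EGFP became −0.118 at levels of 10% or more, −0.158 with 5 changed reads and −0.218 for sites in at least 2 libraries. Numbers of hA3A-BE3 against controls became −0.0536 at 10% or more and −0.0627 for sites in at least 2 libraries. PE3 against Cas9 became 0.0488 at 10% or more. Per gigabase, PE3 against controls became 0.394, PE3 against Cas9 0.33 and hA3A-BE3 against PE3 −0.12, and per 1000 A-to-I sites 0.473, 0.117 and −0.229. The causes were not tested. The relation of numbers to mapped bases rose to r = 0.692 with at least 5 changed reads (permutation p = 0.0029, rho 0.49 with permutation p = 0.0762), the 1 value that newly passed. In that setting r fell to 0.476 without Cas9 replicate 3 and PE3 replicate 2. Leaving out each library, PE3 differences ran from −3.56 to 11.3 in median level, −0.356 to 2.88 in share of the list and −0.649 to 0.142 in covering reads, changing sign only without PE3 replicate 2. The mean level at sites called in all remaining libraries ran from −3.6 to 0.364 for hA3A-BE3, above 0 only without Cas9 replicate 2, when 7 sites entered in place of 5. At the same 5 sites, added after seeing the data, it ran from −3.6 to −1.76, and for PE3 from −0.472 without PE3 replicate 2 to 7.91. With a replicate block the difference in numbers was 0.308 for hA3A-BE3 (exact permutation p = 0.0938) and −0.0972 for PE3 (p = 0.625 by the same exact permutation), and no call changed. Whether the replicate numbers pair the samples was not settled. Deviations of same-numbered libraries correlated from −0.227 to 0.128 over 26 pairs (median 0.04), 3 of them over 0.1. Those of 52 other pairs ran from −0.156 to 0.183 (median −0.011). The deviations were taken from means of groups of 2 or 3 libraries, which ties these correlations to each other, so they cannot decide the question. Of the single-library sites, 70.7% rest on 2 or 3 changed reads.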
